A study of Mus musculus with 24 samples.

Results

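The interferon response genes described here are 39 mouse genes that interferons are known to induce or that belong to class I antigen presentation. They were chosen by name, with earlier results of these data known. All 39 were found among the 45513 genes of the count files through their GRCm38 symbols. By role they fall into 7 transcription factors and signalling genes, 10 GTPases, 10 genes of class I presentation, 3 genes for chemokines and the enzyme Ido1, and 9 antiviral effectors. The study compared Atoh1, the transcription factor that sets the secretory fate of the intestinal epithelium, in a wild-type form (WT) and in a form in which 9 serine or threonine sites were changed to alanine (9S/T-A). Messenger RNA of EpCAM+tdTom+ live cells was sequenced in bulk in 24 libraries, in 4 groups of 6 libraries: WT small intestine (SI), WT colon, 9S/T-A SI, and lastly 9S/T-A colon.

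All mice, both WT and 9S/T-A, were homozygous for an Atoh1 allele with CreERT2 placed behind its coding sequence, and all carried a Rosa26 tdTom reporter on a C57BL/6 background. They were adults of both sexes, each received a single dose of 3 mg tamoxifen, and the cells were sorted the day after. The sort therefore took epithelial cells in which the Atoh1 locus drove the Cre shortly before, and the study saw the reporter at that time in goblet cells of both tissues and in Paneth cells, not in enteroendocrine cells. Libraries carry replicate numbers 2 to 7 in each group. The labels name 6 mice without saying whether that is the number per genotype, and do not tie libraries to mice. The paper gives the same number for each genotype in its expression results, without saying whether mice or libraries were counted. If mice were counted, each genotype had more libraries than mice, so some libraries of a genotype would share a mouse. Each mouse had 1 genotype, so libraries of different genotypes cannot share a mouse, and p-values measure the spread between these libraries.

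Interferons are secreted proteins that warn cells of infection. Type I interferons and interferon lambda signal through the kinases Jak1 and Tyk2 to a complex that holds Stat2 and Irf9 and binds the interferon-stimulated response element (ISRE). Interferon gamma signals through Jak1 and Jak2 to the gamma-activated sequence (GAS) and induces Irf1, and many genes answer to both. In the intestinal epithelium, interferon lambda is known for its part against enteric viruses, and interferon gamma from lymphocytes for raising antigen presentation and the GTPases that attack intracellular parasites and bacteria.

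Total counts per library were between 35967875 and 65796932, the lowest in replicate 7 of WT SI. Values are CPM, counts scaled to the same total in each library, with TMM scaling over all 24 libraries. Where 3 values are given for a group, they are its lowest, median and highest library. The 5 epithelial markers summed to between 8014 and 12317 CPM in SI and between 3704 and 5754 CPM in colon. The 10 stromal and endothelial markers summed to 2.14 to 2.92 CPM in WT SI and 2.18 to 2.70 CPM in SI of 9S/T-A. In colon they summed to 1.94 to 3.31 CPM in WT and 2.16 to 3.09 CPM in 9S/T-A. Of the 10, 7 had counts in each SI group and in WT colon and 6 in 9S/T-A colon, while Col3a1 and Lum had no count in any library. Leukocyte markers differed by tissue. All 16 summed to 1578 to 2892 CPM in SI and 7.69 to 10.8 CPM in colon. In SI most of that sum was Lyz2 and Itgam, and which cells their RNA came from was not tested. The other 14 summed to 47.9 to 112 CPM in WT SI and 34.0 to 124 CPM in SI of 9S/T-A. In colon those 14 summed to 0.760 to 2.21 CPM in WT and 0.309 to 1.86 CPM in 9S/T-A. Cd3e, a T cell receptor subunit, was between 2.24 and 6.57 CPM in WT SI and at most 0.297 CPM in WT colon. In bulk samples, fewer cells of a type and less RNA per cell cannot be told apart. Certain libraries stood apart from their own group in the interferon genes. Replicates 3 and 7 of WT SI, replicates 4 and 5 of 9S/T-A SI, and replicates 4 and 6 of 9S/T-A colon were high, as described below for each.

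The promoters were searched for the letters of the ISRE and the GAS, elements through which interferons are known to induce genes. RefSeq promoters (GRCm38.p6, from 250 bases before to 50 bases after the start) were given for 28 of the 39 members, as 34 promoters. The ISRE core was searched as GAAA, any 2 bases and GAAA, and the GAS core as TTC, any 3 bases and GAA, each on both strands. The ISRE core stood in 14 of the 34 member promoters and in 3.44% of all 32851 promoters, and the GAS core in 7 of the 34 and in 8.3% of all. All 6 GTPase genes with a promoter held the ISRE core, as did 4 of 6 antiviral effectors and 1 of 8 class I genes, B2m. A match is a description of the letters and not a site of binding, and no match says only that these letters are not in this window. The stretches below run 5′ to 3′ in the direction of the gene, from 12 bases before the first match to 12 bases after the last, with the matched letters in capitals. Ifit1, Isg15 and Rsad2 are shown because their highest WT SI value was in the same library. Igtp, Irgm2 and Gbp2 are shown as GTPases with their highest WT SI value in another library, and Irf1 and Psmb8 as members with the GAS core alone.
Ifit1: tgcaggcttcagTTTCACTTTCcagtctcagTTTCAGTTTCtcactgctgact
Isg15: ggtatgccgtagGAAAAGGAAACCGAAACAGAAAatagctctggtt
Rsad2: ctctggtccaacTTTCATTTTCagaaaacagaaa
Igtp: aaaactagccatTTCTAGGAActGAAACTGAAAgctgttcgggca
Irgm2: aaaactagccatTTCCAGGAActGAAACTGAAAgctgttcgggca
Gbp2: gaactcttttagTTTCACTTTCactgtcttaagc
Irf1: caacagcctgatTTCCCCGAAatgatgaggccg
Psmb8: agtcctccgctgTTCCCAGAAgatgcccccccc

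The Ifit1 stretch (chr19:34640773-34640825, plus strand) held 2 ISRE cores, which began 104 and 85 bases before the start. In Isg15 (chr4:156200863-156200908, minus strand) 3 ISRE cores overlapped each other in a single run, beginning 78, 72 and 66 bases before the start, and Rsad2 (chr12:26456551-26456584, minus strand) had 1. The stretches of Igtp (chr11:58199499-58199543, plus strand) and Irgm2 (chr11:58214890-58214934, plus strand) were alike at 44 of 45 bases. In each, a GAS core was followed by an ISRE core that began 11 bases further on, without overlap. Gbp2 (chr3:142620592-142620625, plus strand) held the ISRE core on the opposite strand, and Irf1 (chr11:53769912-53769944, plus strand) and Psmb8 (chr17:34198086-34198118, plus strand) a GAS core 90 and 97 bases before the start. Tap1 and Psmb9, which encode a peptide transporter subunit and an immunoproteasome subunit, start 226 bases apart on chromosome 17.

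**Figure D1:**
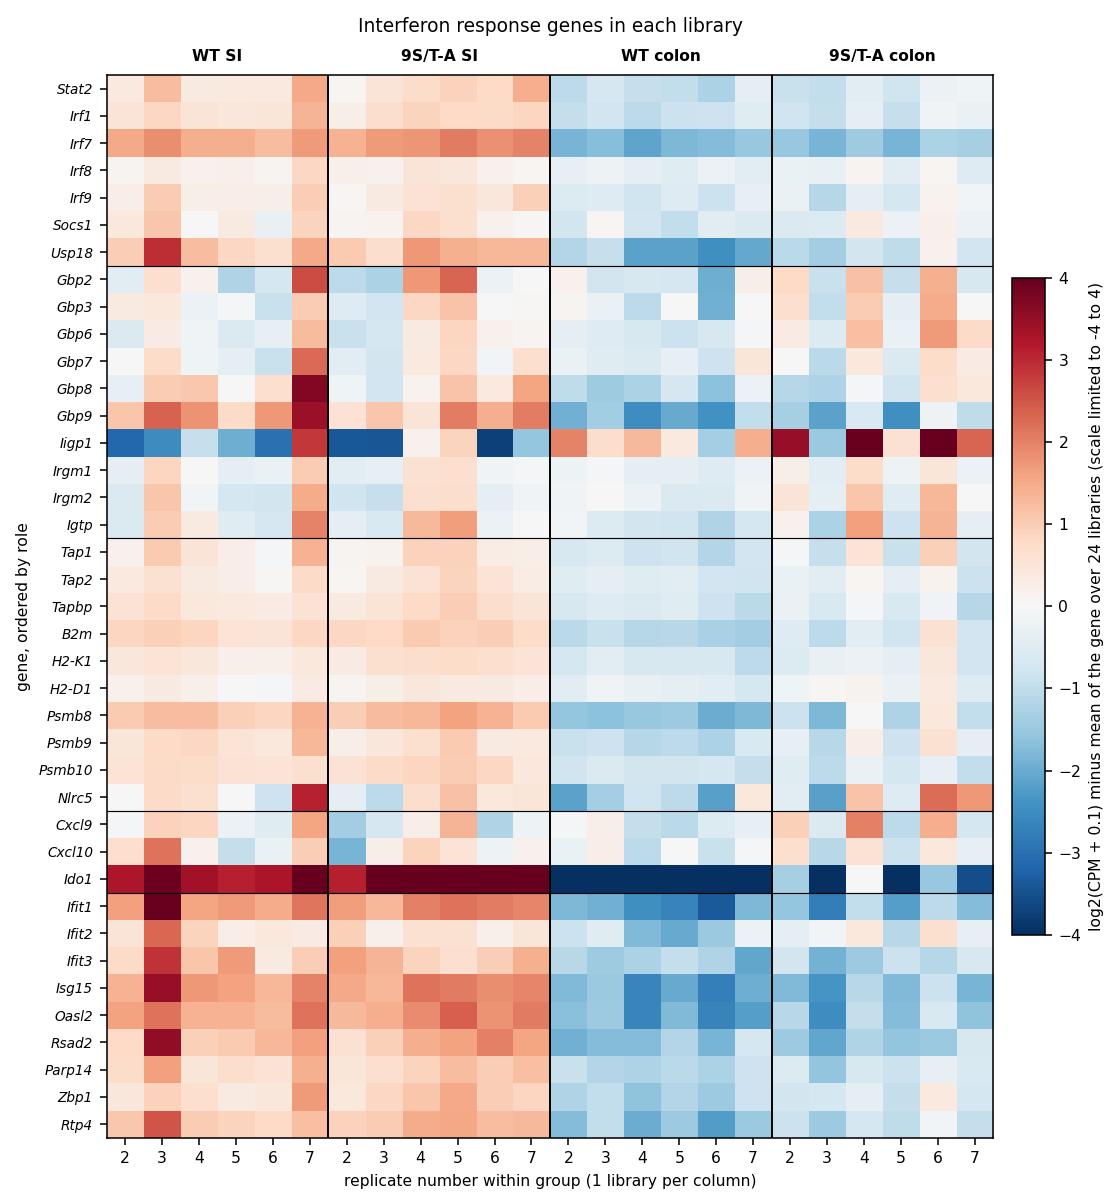
Level of each of the 39 interferon response genes (rows, by role) in each of the 24 libraries (columns, by group and replicate), as log2(CPM + 0.1) minus the mean of the gene over all libraries, with the colour scale limited to -4 to 4. Most rows are higher in the 12 SI libraries than in the 12 colon libraries, and WT SI replicates 3 and 7 and 9S/T-A colon replicate 6 stand out as columns.

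Most of these genes were lower in colon than in SI. In WT cells, in the fit without a replicate block, 33 of the 39 members were called lower in colon and 0 higher by edgeR's quasi-likelihood test at a Benjamini-Hochberg adjusted p under 0.05 over all genes, where 30.4% of all genes tested were lower and 33.1% higher. The median log2 fold change (colon over SI) of the members was -1.58, against 0.03 over all genes tested. All 9 antiviral effectors, all 10 class I genes, all 7 signalling genes and all 3 of the chemokine and Ido1 group were called lower, but only 4 of the 10 GTPases (Gbp8, Gbp9, Irgm1 and Igtp). For 26 members every SI library was above every colon library, which held for 19.6% of all genes tested. The 6 members not called in that fit, Gbp2, Gbp3, Gbp6, Gbp7, Iigp1 and Irgm2, are GTPases. Leukocyte markers were also called lower in colon (10 of the 11 tested). So were 7 of 9 absorptive markers, whose sum was 2212 to 5745 CPM in WT SI and 364 to 673 CPM in WT colon, and 6 of 9 goblet and Paneth markers, at 127727 to 164130.4 CPM and 24249 to 34844 CPM. The paper gives Paneth cell transcripts for SI only, so tissue and the mix of sorted cell types cannot be told apart here. The part of any of these cell types in the result was not tested.

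In 9S/T-A cells 25 members were called lower in colon and 1 higher, where 28.0% of all genes tested were lower and 32.9% higher, and the median log2 fold change was -0.89. For 18 members every SI library was above every colon library, against 18.4% of all genes tested. The member called higher was Iigp1. Without WT SI replicates 3 and 7, an alternative chosen after their values were seen, 28 members were called lower in WT colon. Of the 17495 genes tested in that fit, 4647 were called lower and 5698 higher. Cxcl9, Cxcl10, Nlrc5, Irgm1 and Igtp lost their call, and Iigp1 was then called higher in colon (log2 fold change 3.48, SE 0.722, edgeR adjusted p = 0.000961). Without 9S/T-A colon replicates 4 and 6, 27 members were called lower and 1 higher in 9S/T-A cells, where 4478 of the 17381 genes tested were lower and 5268 higher.

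**Figure D2:**
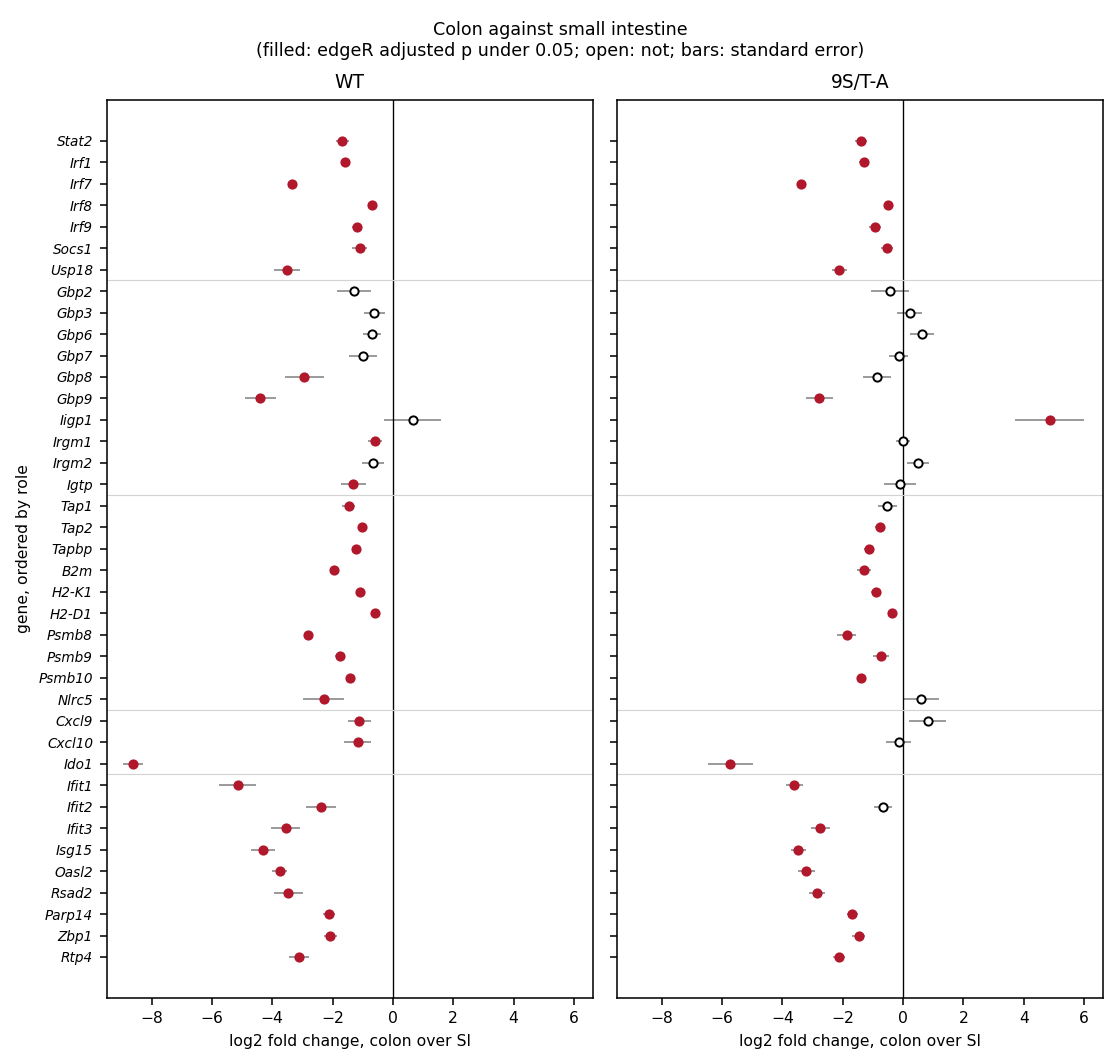
Log2 fold change of colon over SI with its standard error for each member (rows, by role) in WT (left) and 9S/T-A (right) cells; filled points passed the edgeR adjusted p of 0.05 and open points did not. Ido1 lies farthest to the left in both panels, and in 9S/T-A cells 5 of the 10 GTPases lie on each side of 0.

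Between the genotypes, no member passed the correction in either tissue by edgeR. In SI, 0 of the 39 members were called by edgeR, where 1.94% of all genes tested were called. There 2 members had an unadjusted p under 0.05, against 15.7% of all genes, and DESeq2 called 0 members and 4.82% of all genes. The log2 fold change (9S/T-A over WT) was above 0 for 14 members, against 50.0% of all genes, with a median of -0.07 and a range from -1.31 to 0.44. In colon 0 of 39 were called as well, where 0.318% of all genes were, but 24 had an unadjusted p under 0.05, against 8.81% of all genes. Shares over all genes, here and below, are a reference only. The members were chosen with earlier results of these data known and are not independent genes. DESeq2 called 5 members in colon, B2m, Gbp6, Ido1, Rtp4 and Zbp1, and 1.47% of all genes. All 39 members had a log2 fold change above 0 in colon, against 51.7% of all genes, with a median of 0.73, a range from 0.12 to 3.35, and a median of 0.00 over all genes.

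The groups overlapped for every member in both tissues, whereas 2.07% of all genes in SI and 0.906% in colon had groups that did not. The difference between the tissues in the genotype effect was tested as an interaction over all 24 libraries. Without a replicate block it called 0 members by edgeR, against 0.412% of all genes, and 16 had an unadjusted p under 0.05, against 9.69% of all genes. DESeq2 called 1 member for the interaction, Ido1, and 1.44% of all genes. The estimate was above 0 for 38 members, with a median of 0.84, and was -0.01 for Irf7. Without replicates 3 and 7 of WT SI, 36 members had a genotype log2 fold change above 0 in SI and the median was 0.28, with 0 called. Without 9S/T-A colon replicates 4 and 6, 38 members stayed above 0 in colon and the median was 0.24, with 0 called.

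**Figure D3:**
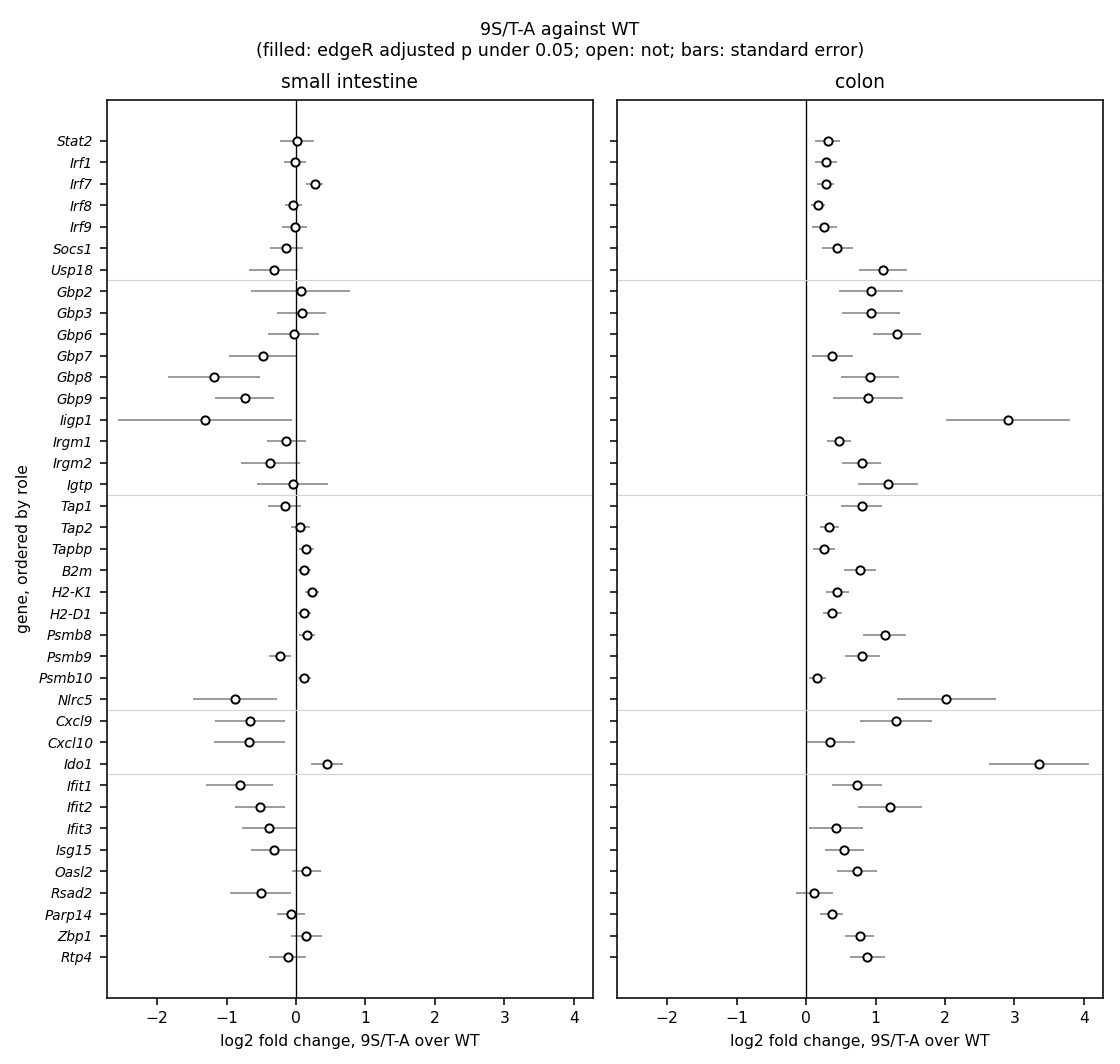
Log2 fold change of 9S/T-A over WT with its standard error for each member (rows, by role) in SI (left) and colon (right). No point is filled, since 0 members passed the edgeR adjusted p of 0.05 in either tissue; in colon all 39 points lie to the right of 0, from 0.12 to 3.35.

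Among the transcription factors, Irf7, which amplifies the type I response, was lower in colon in both genotypes. Its lowest, median and highest libraries were 150.4, 181 and 232 CPM in WT SI and 169.7, 225 and 275 CPM in SI of 9S/T-A. In colon they were 14.8, 18.9 and 22.3 CPM in WT and 17.9, 23.2 and 26.9 CPM in 9S/T-A. Every SI library was far above every colon library, and within each tissue the genotypes overlapped. The log2 fold change of colon over SI was -3.36 (edgeR adjusted p = 3.35e-12, SE 0.123) in WT. For genotype it was 0.27 in SI (adjusted p = 0.308, SE 0.122) and 0.28 in colon (adjusted p = 0.557, SE 0.128), nearly the same in both tissues.

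Usp18, a protease that removes Isg15 from proteins and dampens the type I receptor, was at 3.99, 5.61 and 20.4 CPM in WT SI and at 4.16, 6.52 and 8.71 CPM in SI of 9S/T-A. In WT colon it was at 0.378, 0.520 and 1.30 CPM, and in 9S/T-A colon at 0.896, 1.31 and 2.87 CPM. The highest WT SI value came from replicate 3 alone, and the colon genotypes overlapped, with 3 of 6 9S/T-A libraries above every WT library. The genotype log2 fold change was -0.32 in SI (edgeR adjusted p = 0.704, SE 0.353) and 1.11 in colon (adjusted p = 0.296, SE 0.343), and the interaction was 1.40 (adjusted p = 0.313, SE 0.518). Without WT SI replicate 3 the interaction fell to 0.87. With all libraries and the replicate block it was 1.24 and was called (edgeR adjusted p = 0.0389, SE 0.289).

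The remaining signalling genes were Stat2 and Irf9, partners in the complex that binds the ISRE, Irf1, the early transcription factor of the gamma response, Irf8, which is better known in myeloid cells, and Socs1, an inhibitor of the Jak kinases. Irf1 had a median of 157 CPM in WT SI and 189 CPM in SI of 9S/T-A, and of 61.4 and 74.5 CPM in WT and 9S/T-A colon. Stat2 medians were 59.2 and 76.7 CPM in SI and 23.2 and 29.4 CPM in colon, in the same order. Irf8 differed least between tissues among these 7, with a log2 fold change of -0.70 in WT (edgeR adjusted p = 7.25e-05, SE 0.115), and Socs1 was low throughout, from 0.896 to 4.13 CPM over all libraries. Of the 7 genes, 2 in colon (Irf7 and Usp18) and 1 in SI (Irf7) had an unadjusted p under 0.05 for genotype, and all 7 were called lower in colon in each genotype.

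The GTPases comprise guanylate-binding proteins (Gbp), which assemble on pathogens and their vacuoles, and immunity-related GTPases (Iigp1, Igtp and the regulators Irgm1 and Irgm2). Gbp2 was at 6.09, 13.1 and 86.5 CPM in WT SI, at 5.83, 13.0 and 70.8 CPM in SI of 9S/T-A, at 3.60, 8.82 and 16.7 CPM in WT colon and at 7.38, 16.8 and 38.2 CPM in 9S/T-A colon. All 4 groups overlapped. The high values were WT SI replicate 7, 9S/T-A SI replicates 5 and 4 (70.8 and 46.9 CPM) and 9S/T-A colon replicates 6, 4 and 2 (38.2, 31.8 and 24.6 CPM). The genotype log2 fold change of Gbp2 was 0.07 in SI (SE 0.713) and 0.94 in colon (SE 0.460), with edgeR adjusted p of 0.978 and 0.596.

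Iigp1, which damages the vacuole of intracellular parasites, was the only member with a WT estimate above 0 for colon over SI. Its lowest, median and highest libraries were 0.0481, 0.184 and 9.33 CPM in WT SI, and 0, 0.190 and 2.35 CPM in SI of 9S/T-A, where replicate 6 had 0 counts. In WT colon they were 0.411, 2.58 and 5.16 CPM, and in 9S/T-A colon 0.375, 10.6 and 52.8 CPM. Colon libraries were thus mostly above SI libraries, the reverse of most members, and in 9S/T-A colon replicates 4, 6, 2 and 7 (52.8, 42.5, 14.6 and 6.54 CPM) exceeded every WT colon library while replicate 3 was below all of those. Colon over SI, the log2 fold change was 0.65 in WT (edgeR adjusted p = 0.572, SE 0.957) and 4.86 in 9S/T-A (adjusted p = 0.00181, SE 1.15). With the replicate block the WT value was 2.15 and was called higher (edgeR adjusted p = 0.02, SE 0.733). The genotype log2 fold change was 2.91 in colon (adjusted p = 0.295, SE 0.896) and -1.31 in SI (adjusted p = 0.653, SE 1.25).

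Gbp6 was at 1.18, 1.53 and 4.50 CPM in WT SI, 0.944, 2.02 and 3.41 CPM in SI of 9S/T-A, 0.954, 1.20 and 1.75 CPM in WT colon and 1.22, 2.73 and 6.18 CPM in 9S/T-A colon. In colon 4 of 6 9S/T-A libraries were above every WT library. Its genotype log2 fold change in colon was 1.31 (edgeR adjusted p = 0.184, SE 0.347, DESeq2 adjusted p = 0.0119) and in SI -0.03 (SE 0.367).

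Gbp8 was at 0.889, 2.13 and 15.8 CPM in WT SI and at 0.624, 1.38 and 3.59 CPM in SI of 9S/T-A. WT replicate 7 alone held the high value, and the next library was at 2.49 CPM. The SI log2 fold change of -1.18 (edgeR adjusted p = 0.415, SE 0.658) became 0.01 without that library. In colon Gbp8 was at 0.296, 0.460 and 0.946 CPM in WT and at 0.424, 0.846 and 1.87 CPM in 9S/T-A, overlapping, with a log2 fold change of 0.92 (adjusted p = 0.551, SE 0.414). Gbp8 and Gbp9 overlap on the minus strand of chromosome 5, and Igtp and Irgm2 on the plus strand of chromosome 11, so the split of reads within each pair is uncertain.

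Over the 10 GTPases the median genotype log2 fold change was -0.26 in SI, with 8 below 0, and 0.93 in colon, with all 10 above 0 and 7 at an unadjusted p under 0.05. The other 6 (Gbp3, Gbp7, Gbp9, Irgm1, Irgm2 and Igtp) lay between 0.38 and 1.18 in colon. The SI estimates include WT replicate 7, the highest WT SI library for all 10. Between tissues in WT, Gbp9 was the GTPase with the largest difference, at 1.89, 3.85 and 12.7 CPM in WT SI against 0.106, 0.199 and 0.495 CPM in WT colon, every SI library above every colon library. Its log2 fold change of colon over SI was -4.39 (edgeR adjusted p = 1.83e-06, SE 0.505) in WT and -2.77 (adjusted p = 7.15e-05, SE 0.448) in 9S/T-A. Irgm1 in contrast was at a median of 35.1 CPM in WT SI and 31.3 CPM in WT colon.

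Genes of class I presentation were among the most abundant members. Per kilobase of exon, the highest mean level of a member in WT SI was that of B2m, the light chain of class I molecules, at 582 CPM per kb, followed by Ido1 at 445 and the heavy chains H2-K1 at 415 and H2-D1 at 237. In WT colon the order began with H2-K1 at 199.9, H2-D1 at 161 and B2m at 156 CPM per kb. H2-K1 and H2-D1 have close relatives in the class I region, so their counts are uncertain to that extent.

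B2m was at 422, 527 and 565 CPM in WT SI, 489, 542 and 603 CPM in SI of 9S/T-A, 113, 135 and 159.8 CPM in WT colon and 142, 191 and 451 CPM in 9S/T-A colon. In colon 5 of 6 9S/T-A libraries were above every WT library, and only replicate 3 lay within the WT range. The log2 fold change was 0.78 in colon (edgeR adjusted p = 0.255, SE 0.231, DESeq2 adjusted p = 0.0357) and 0.12 in SI (adjusted p = 0.555, SE 0.0922). H2-K1 was at 950.1, 1121 and 1213 CPM in WT SI and at 1035, 1322 and 1369 CPM in SI of 9S/T-A, with 4 of 6 9S/T-A libraries above every WT library. Its SI log2 fold change of 0.23 (SE 0.0941) had the smallest unadjusted p of any member there, 0.0293, and an adjusted p of 0.252. In colon H2-K1 was at 400.1, 529 and 618 CPM in WT and at 490.0, 652 and 1128 CPM in 9S/T-A, which gave a log2 fold change of 0.45 (adjusted p = 0.419, SE 0.168).

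The immunoproteasome subunits Psmb8, Psmb9 and Psmb10 take the place of the constitutive subunits Psmb5, Psmb6 and Psmb7 and change which peptides are cut. Psmb8 was at 80.6, 97.2 and 115 CPM in WT SI, 87.4, 109 and 135 CPM in SI of 9S/T-A, 11.0, 14.6 and 16.2 CPM in WT colon and 12.6, 23.2 and 59.4 CPM in 9S/T-A colon. Again 5 of 6 9S/T-A colon libraries were above every WT colon library, with replicates 6 and 4 (59.4 and 44.7 CPM) the highest. The log2 fold change in colon was 1.13 (edgeR adjusted p = 0.19, SE 0.305) and in SI 0.16 (adjusted p = 0.54, SE 0.112). For SI, the ratio of Psmb8 to Psmb5, both as CPM per kb of exon, had a median of 0.577 with WT and 0.567 with 9S/T-A. For colon, this median was 0.0982 with WT and 0.176 with 9S/T-A, whose replicate 6 reached 0.382. None of Psmb5, Psmb6 and Psmb7 was called for genotype in either tissue by edgeR, and 0 of the 3 had an unadjusted p under 0.05.

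Nlrc5, the transactivator of class I genes, was at 0.745, 1.79 and 12.6 CPM in WT SI, 0.624, 1.94 and 3.22 CPM in SI of 9S/T-A, 0.230, 0.553 and 1.91 CPM in WT colon and 0.228, 2.09 and 6.90 CPM in 9S/T-A colon. The highest SI library was WT replicate 7, and in 9S/T-A colon replicates 6, 7 and 4 were above every WT colon library while replicate 3 was just below all of those. The genotype log2 fold change was 2.02 in colon (edgeR adjusted p = 0.378, SE 0.714) and -0.88 in SI (adjusted p = 0.518, SE 0.601), and the interaction was 2.89 (adjusted p = 0.244, SE 0.979). Without WT SI replicate 7 the interaction was 1.84. With all libraries and the replicate block it was 2.28 and was called (edgeR adjusted p = 0.0448, SE 0.549). The peptide transporter subunits Tap1 and Tap2 and the loading factor Tapbp had colon log2 fold changes of 0.80, 0.33 and 0.26, and in SI of -0.16, 0.06 and 0.15. Of the 10 class I genes, 8 in colon and 1 in SI had an unadjusted p under 0.05, with medians of 0.62 and 0.12.

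Ido1, the enzyme that degrades tryptophan along the kynurenine pathway, differed most between tissues and between genotypes in colon. It was at 577, 663 and 1352 CPM in WT SI and at 579, 1155 and 1370.0 CPM in SI of 9S/T-A. In colon it was at 1.52, 1.85 and 3.90 CPM in WT and at 2.62, 14.4 and 67.8 CPM in 9S/T-A. The 9S/T-A colon libraries were at 26.2, 2.62, 67.8, 3.39, 23.3 and 5.57 CPM in replicates 2 to 7, so 4 of 6 were above every WT colon library and all were below every SI library. Colon over SI, the log2 fold change was -8.62 (edgeR adjusted p = 7.75e-12, SE 0.342) in WT and -5.72 (adjusted p = 9.09e-06, SE 0.749) in 9S/T-A.

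The genotype log2 fold change of Ido1 in colon was 3.35 (SE 0.717), with an edgeR adjusted p of 0.0703 and a DESeq2 adjusted p of 0.000926. It stayed between 2.55 and 3.65 when each library was left out in turn, lowest without 9S/T-A replicate 4, and passed the edgeR threshold without 9S/T-A replicate 3 or replicate 7. In SI it was 0.44 (adjusted p = 0.375, SE 0.230), and the interaction was 2.91 (edgeR adjusted p = 0.0922, SE 0.748, DESeq2 adjusted p = 0.0205). Cxcl9 and Cxcl10, chemokines that draw T cells through Cxcr3, were low in every group. Cxcl9 was between 0.341 and 4.55 CPM over all libraries and Cxcl10 between 0.288 and 6.27 CPM. Their colon log2 fold changes were 1.30 and 0.35, with edgeR adjusted p of 0.464 and 0.939.

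**Figure D4:**
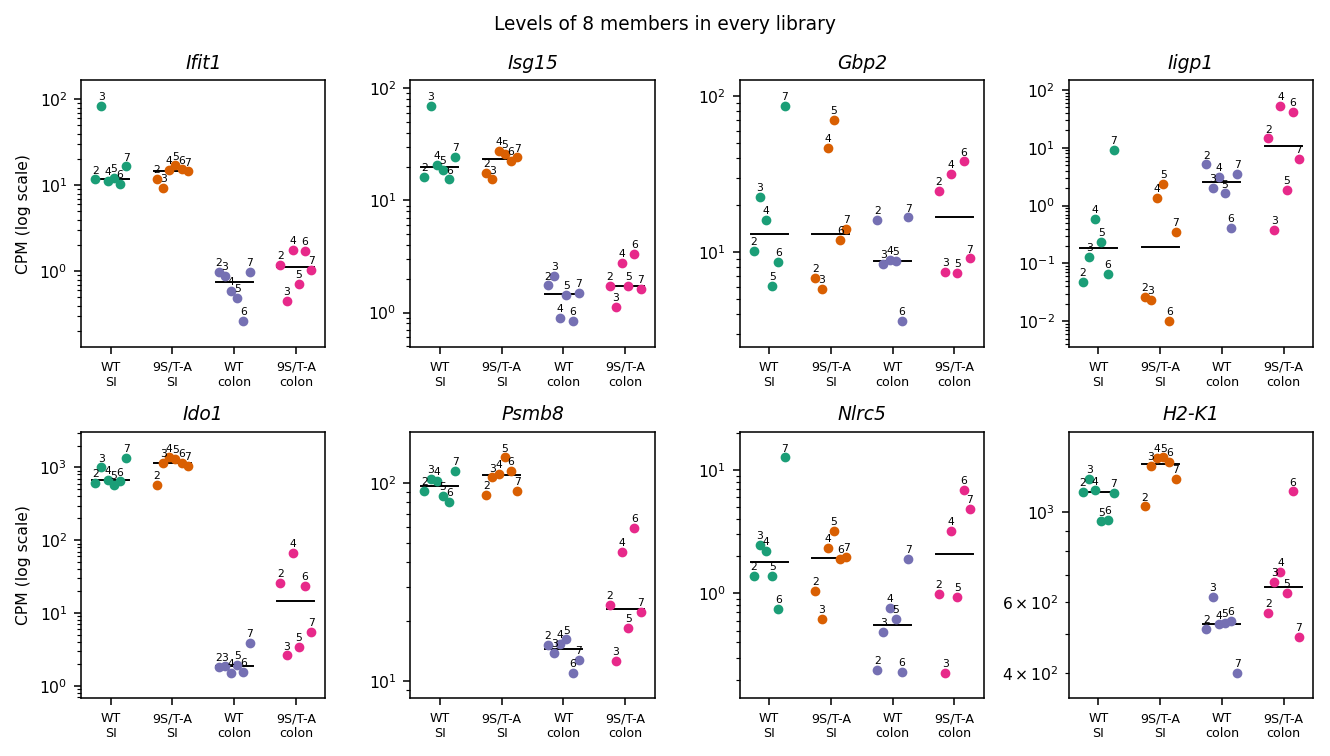
CPM on a log scale of 8 members in every library of the 4 groups; each point is a library labelled with its replicate number, the line is the group median, and the 0 of Iigp1 in 9S/T-A SI replicate 6 is drawn at 0.01. Ifit1 and Isg15 are highest in WT SI replicate 3, Gbp2, Iigp1 and Nlrc5 in WT SI replicate 7 among SI libraries, and Ido1 is at 577 CPM or more in SI and at most 67.8 CPM in colon.

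The antiviral effectors had the lowest median log2 fold change of colon over SI of the 5 roles. They include Ifit1, Ifit2 and Ifit3, which bind foreign RNA, Isg15, a ubiquitin-like modifier, Rsad2 (viperin), which makes a chain-terminating nucleotide, Oasl2 of the oligoadenylate synthetase family, the ADP-ribosyltransferase Parp14, the nucleic acid sensor Zbp1 and the receptor chaperone Rtp4. Ifit1 was at 10.4, 12.0 and 83.4 CPM in WT SI, 9.27, 14.7 and 17.0 CPM in SI of 9S/T-A, 0.263, 0.742 and 0.989 CPM in WT colon and 0.456, 1.12 and 1.79 CPM in 9S/T-A colon. WT SI replicate 3 stood alone, the next library being at 16.6 CPM, and every SI library was above every colon library. The log2 fold change of colon over SI was -5.14 (edgeR adjusted p = 2.64e-06, SE 0.612) in WT and -3.61 (adjusted p = 3.39e-08, SE 0.284) in 9S/T-A.

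Isg15 behaved alike, at 15.4, 19.8 and 69.5 CPM in WT SI, 15.4, 23.3 and 27.9 CPM in SI of 9S/T-A, 0.838, 1.47 and 2.11 CPM in WT colon and 1.12, 1.73 and 3.34 CPM in 9S/T-A colon. Rsad2 was at 15.4, 20.3 and 105 CPM in WT SI and 13.3, 25.3 and 36.2 CPM in SI of 9S/T-A, against 2.26, 2.57 and 5.35 CPM and 1.99, 3.11 and 5.55 CPM in WT and 9S/T-A colon. In both genes the high value was again WT SI replicate 3, and the SI libraries were above all colon libraries. Rsad2 had the smallest colon genotype estimate of the 39, a log2 fold change of 0.12 (edgeR adjusted p = 1, SE 0.270), and Isg15 had 0.55 (adjusted p = 0.624, SE 0.281).

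Zbp1 was at 31.8, 36.6 and 79.6 CPM in WT SI, 33.1, 46.6 and 71.1 CPM in SI of 9S/T-A, 8.04, 10.7 and 13.7 CPM in WT colon and 12.6, 15.0 and 31.9 CPM in 9S/T-A colon. In colon 5 of 6 9S/T-A libraries were above every WT library, and only replicate 5 fell within the WT range. The colon log2 fold change was 0.77 (edgeR adjusted p = 0.211, SE 0.214, DESeq2 adjusted p = 0.0279), and 0.53 without replicate 6. Over the 9 antiviral effectors the median genotype log2 fold change was -0.31 in SI, with 7 below 0, and 0.73 in colon, with 5 of 9 at an unadjusted p under 0.05. The SI estimates include WT replicate 3, the highest WT SI library for 8 of the 9. By group medians, each of the 9 was higher in SI of 9S/T-A than in WT SI. In WT all 9 were called lower in colon, with a median of -3.47, and in 9S/T-A 8 were, with a median of -2.75. Ifit2 was the exception (-0.67, SE 0.307, adjusted p = 0.0732).

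Within groups, libraries differed in which members were high. Each library was set against the median of its own group, as the median ratio over the members, while the median over genes with a mean of at least 1 CPM was between 0.946 and 1.02 in every library. Every member had its highest WT SI value in replicate 3 (18 members) or replicate 7 (21 members). In replicate 3 the median ratio was 3.50 for the antiviral effectors and 1.61 for the GTPases. In replicate 7 it was 1.37 for the antiviral effectors and 3.71 for the GTPases, all 10 of which were highest there. Ifit1 and Rsad2 were 6.97 and 5.16 times the group median in replicate 3 and 1.39 and 1.37 times in replicate 7, whereas Gbp2 and Nlrc5 were 1.71 and 1.37 times in replicate 3 and 6.59 and 7.01 times in replicate 7. These are among the clearest cases. Others were raised in both, such as Irgm2 (2.75 times in replicate 3 and 3.52 in replicate 7) and Parp14 (1.89 and 1.63). The antiviral effector Zbp1 was higher in replicate 7 (1.28 and 2.17).

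**Figure D5:**
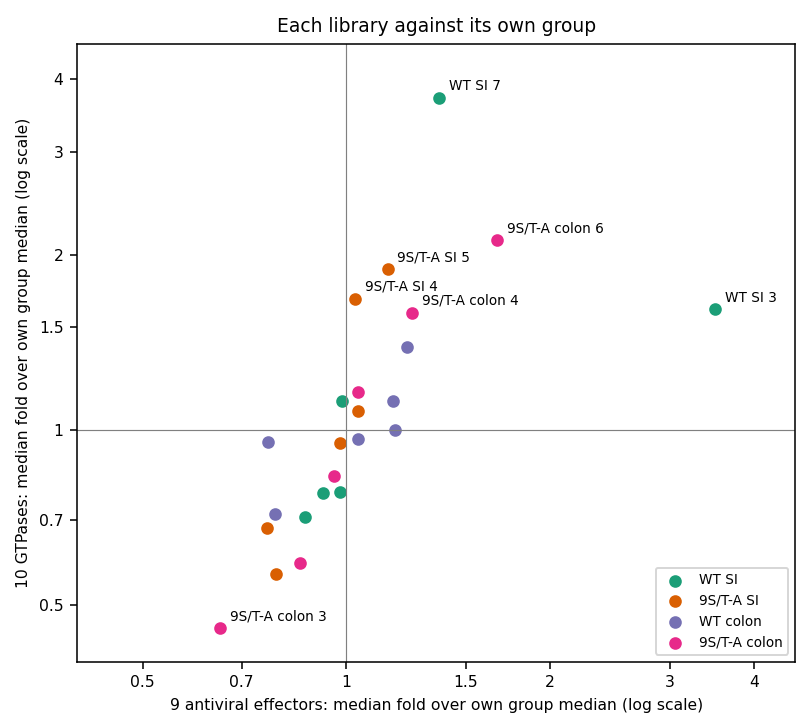
Each of the 24 libraries by the median fold of the 9 antiviral effectors (x axis) and of the 10 GTPases (y axis) over the median of its own group, both on log scales, coloured by group. WT SI replicate 3 lies far to the right (3.50 and 1.61) and WT SI replicate 7 far up (1.37 and 3.71), while 9S/T-A SI replicates 4 and 5 lie up with antiviral folds near 1.

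MHC class II genes, which interferon gamma is known to induce in epithelium, had their highest SI sums in WT replicate 7 and 9S/T-A replicate 5. The GTPases of each genotype were highest in the same SI library. The 7 class II genes summed to 429 CPM in WT SI replicate 7, and to 77.8 to 92.1 CPM in replicates 2, 5 and 6. Replicate 4 (206 CPM, GTPases 1.12 times the group median) was above replicate 3 (130.4 CPM, GTPases 1.61 times), so the orders differed below the highest library. In 9S/T-A SI, GTPases were at 1.89 and 1.68 times the group median in replicates 5 and 4, with class II sums of 122 and 117 CPM against 59.1 to 64.5 CPM in the others. Leukocyte markers had another order. The sum of the 14 genes without Lyz2 and Itgam was highest in WT SI replicate 5 (112 CPM) and 9S/T-A SI replicate 6 (124 CPM), whose GTPases were at 0.780 and 0.950 times the group median. The sum of all 16 was mostly Lyz2 and Itgam in SI. In WT SI it was highest in replicate 6 (2892 CPM, GTPases 0.709 times), where the 14 summed to 47.9 CPM, the lowest of that group. In 9S/T-A SI it was highest in replicate 4 (2435 CPM), a library with high GTPases, where the 14 summed to 38.6 CPM. In WT SI replicates 3 and 7 the sums of the 14 were 59.6 and 84.0 CPM, within the range of the other 4. The cause of these patterns was not tested.

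In 9S/T-A colon, replicate 6 was highest for 25 members, replicate 4 for 10, and replicate 3 was lowest for 27. Of the 39 members, 37 in replicate 6, 34 in replicate 4, 25 in replicate 2 and 19 in replicate 7 were above every WT colon library, but only 5 in replicate 5 and 4 in replicate 3. For all genes tested, the corresponding shares were 13.8%, 19.0%, 13.8%, 19.0%, 10.1% and 16.2%. Below every WT colon library were 9 members in replicate 3 and 4 in replicate 7, against 17.9% and 28.4% of all genes tested, and 0 in the other 4 libraries. Class II sums were 865, 207, 198 and 110.2 CPM in replicates 6, 4, 7 and 2, and 135 and 27.8 CPM in replicates 5 and 3, against 12.4 to 32.4 CPM in WT colon, so that replicate 5 had a higher class II sum than replicate 2 but fewer members above the WT range. The part of other cells in these differences was not tested. The 14 leukocyte genes without Lyz2 and Itgam summed to at most 1.86 CPM in every 9S/T-A colon library and to 1.26 CPM in replicate 6, and all 16 to between 8.18 and 10.6 CPM.

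Around these members, the pathway was measured as follows. Of 10 interferon genes, Ifng had at most 7 counts in an SI library (0.158 CPM) and 0 in all 12 colon libraries, where 3 counts, the most that a count of 0 allows for, would be 0.0369 to 0.0493 CPM. The lambda genes Ifnl2 and Ifnl3 had at most 3 counts in a library. Ifnb1 and the 4 Ifna genes had 0 counts throughout, which limits RNA in these sorted cells only and covers counting error only. All 6 receptor genes were present and all 6 were called lower in colon in each genotype, as were 30.4% of all genes tested in WT and 28.0% in 9S/T-A. Among them Ifnlr1, the specific chain of the lambda receptor, had a log2 fold change of -1.22 (edgeR adjusted p = 2.94e-06, SE 0.146) in WT. For genotype, 0 of the 6 receptor genes were called in either tissue. Their colon genotype estimates lay between -0.10 and 0.03, and 0 of 6 had an unadjusted p under 0.05.

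Of the 9 kinases, STATs and IRFs outside the members, 0 were called for genotype in either tissue. Among the nucleic acid sensors, Tmem173 (STING) was the only gene called for genotype. It was at 2.09, 3.07 and 3.58 CPM in WT SI and 1.44, 1.78 and 2.18 CPM in SI of 9S/T-A, where the log2 fold change was -0.76 (edgeR adjusted p = 0.0196, SE 0.154), and it was called higher in colon than in SI in each genotype, the opposite of most members.

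A further list of 34 interferon-stimulated genes, of which 31 to 33 were tested in each comparison, had 0 called for genotype in SI or colon by edgeR. In colon 28 of 31 were above 0, 13 had an unadjusted p under 0.05, and the median log2 fold change was 0.29, lower than the 0.73 of the 39 members. In SI 17 of 32 were above 0, with a median of 0.02. Between tissues in WT, 24 were called lower in colon and 3 higher, where 30.4% of all genes tested were lower and 33.1% higher. The class II genes were the only one of the lists with calls for genotype in colon, where H2-Aa, H2-Eb1 and the invariant chain gene Cd74 were called higher in 9S/T-A, with log2 fold changes of 4.80, 3.82 and 4.56 (edgeR adjusted p = 0.0297, 0.0379 and 0.0281). In SI all 7 class II genes had an estimate below 0, 5 with an unadjusted p under 0.05 and 0 called, and for 6 of 7 the interaction was called. Without a replicate block, none of the 39 members was called by edgeR for either.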

How the data were processed

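RNA of sorted EpCAM+tdTom+ cells was sequenced with a stranded mRNA kit as single-end reads. Per the labels and file headers, the authors aligned reads to GRCm38.p3 with TopHat2 2.1.1 and deposited raw counts per gene from featureCounts (Subread 1.5.2, reverse strand, primary alignments). Symbols from a supplied table of mouse gene IDs matched 97.96% of IDs. The deposited counts (35967875 to 65796932 per library) entered edgeR's two-sided quasi-likelihood test (version 4.0.16, R 4.3.3, TMM scaling, filterByExpr) within each tissue, within each genotype and as an interaction, and p-values were adjusted over all genes that passed the filter, as did all 39 members. The fit was tested on simulated data. Alternatives were DESeq2 1.42.0, its size factors, no filter, a replicate block, sex as a covariate, a threshold of 0.1 and leaving out each library. Libraries were left out in pairs after their values were seen. Of 276 pairs of libraries, 0 were identical.

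The members and gene lists were chosen with earlier results of these data known. Values in full were given by a rule: members called for genotype or interaction with or without the block, the 4 with the smallest p in each genotype comparison, and the highest per kilobase. Values of Ifit1, Isg15, Rsad2, Gbp2, Gbp9, Iigp1 and Tmem173 were added after they were seen. Promoters came from RefSeq (GRCm38.p6), and 11 members had none in that table. The values of 1 gene outside the members are not reported here.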

Additional observations from a re-analysis of the deposited data

Results flagged for a closer look

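In 28 of 156 sets of 6 libraries (39 members in 4 groups), 1 library stood apart from the other 5 by Dixon's test on CPM without logs. Chance would give about 1 of 20 sets for independent, normally distributed values. The 39 members were measured in the same libraries and moved together, so the 28 are not separate departures from chance. Of the 28, 10 were WT SI replicate 7, 8 were WT SI replicate 3, 4 were 9S/T-A colon replicate 6, 3 were WT colon replicate 7 and 3 fell singly.

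In WT SI replicate 7, the high values were 285 CPM for Irf1, 83.8 CPM for Irf8, 86.5 CPM for Gbp2 (next library 22.5 CPM), 4.50 CPM for Gbp6, 23.4 CPM for Gbp7, 15.8 CPM for Gbp8, 12.7 CPM for Gbp9, 9.33 CPM for Iigp1 (next library 0.588 CPM), 12.6 CPM for Nlrc5 and 79.6 CPM for Zbp1. It was the shallowest library, with 35967875 counts. In WT SI replicate 3, they were 20.4 CPM for Usp18, 6.27 CPM for Cxcl10, 83.4 CPM for Ifit1, 3.33 CPM for Ifit2, 4.44 CPM for Ifit3, 69.5 CPM for Isg15, 105 CPM for Rsad2 (next library 27.9 CPM) and 23.8 CPM for Rtp4. The first set holds 6 GTPases and 1 antiviral effector (Zbp1), the second 6 antiviral effectors and 0 GTPases, and no gene was in both.

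In colon, 9S/T-A replicate 6 was high for Usp18 (2.87 CPM), B2m (451 CPM), H2-K1 (1128 CPM) and Zbp1 (31.9 CPM), and 9S/T-A replicate 4 for Ido1 (67.8 CPM). WT colon replicate 7 was high for Gbp7 (6.77 CPM), Nlrc5 (1.91 CPM) and Ido1 (3.90 CPM). In 9S/T-A SI, replicate 2 was low for Irf1 (129 CPM) and replicate 5 was high for Cxcl9 (2.85 CPM). The cause of these differences between libraries was not tested.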

How the results depend on the processing

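The counts of members called between tissues stayed within 1.5 times under every alternative run, at 29 to 38 in WT and 24 to 28 in 9S/T-A. Between genotypes in SI, 0 members were called under every alternative, while the count over all genes, 315, became 561 at a threshold of 0.1, 782 with DESeq2 and 477 with the replicate block. In colon, 1 member was called at a threshold of 0.1, 5 with DESeq2 and 1 without the low-count filter, and the 54 calls over all genes became 109, 250 and 90, with 385 under the replicate block and 89 with sex as a covariate. For the interaction, 1 member was called at a threshold of 0.1, 1 with DESeq2 and 2 with the replicate block (Usp18 1.24, adjusted p = 0.0389, and Nlrc5 2.28, adjusted p = 0.0448), and the 74 calls over all genes became 136, 258 and 342. Between tissues in WT, the replicate block gave 37 members lower and 1 higher, with Gbp2, Gbp3, Gbp6 and Gbp7 newly lower and Iigp1 higher (2.15, adjusted p = 0.02, against 0.65), and in 9S/T-A 27 lower and 1 higher, with Gbp8 and Tap1 newly lower. DESeq2 added Gbp6 in WT and Ifit2 in 9S/T-A, and gave Ifit1 in WT no adjusted p. The numbers were not taken to pair the libraries by the rule used. Same-number correlations were over 0.1 in 3 of 6 pairs between genotypes in SI and in 5 of 6 in each of the other comparisons. Their means were 0.144 to 0.293, against -0.0532 to -0.0283 for libraries of different numbers. Libraries of the same number also had the same sex in all 4 groups. Whether SI and colon libraries of the same number shared a mouse was not tested. Leaving out each library gave 188 to 550 calls over all genes in SI, 30 to 72 in colon and 50 to 112 for the interaction, with 0 members called in SI and 0 to 1 in colon and for the interaction. The member median then lay between -0.25 and 0.12 in SI and between 0.50 and 0.89 in colon, and the SI estimate of Gbp8 between -1.53 and 0.01. Leaving out 2 libraries together, chosen after seeing the data for their member levels, gave 171 calls over all genes in SI, 24 in colon, and 34 (without WT SI 3 and 7) and 32 (without 9S/T-A colon 4 and 6) for the interaction, and Gbp8 in SI became 0.14. The cause was not tested. Total counts limit the low members most, such as Iigp1 and Ifit3.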
